A study of Homo sapiens with 46 samples.

Results

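KBTBD8 was depleted in H1 cells, an established line of human embryonic stem cells, and these were compared with controls 1 day into neural conversion. The comparison takes 8 of the 46 libraries, those whose titles name neural day 1 (ND1). They are 2 mRNA and 2 ribosome footprint libraries of cells infected with a lentivirus carrying a control short hairpin RNA (shControl), and 2 of each from cells infected with one against KBTBD8 (shKBTBD8). All 8 came from H1 cells kept for 1 day in a medium that the labels call NIM. The study also sampled undifferentiated H1 cells (hES), grown without feeders, and cells after 3 and 6 days of conversion (ND3 and ND6), with 2 libraries per hairpin, stage and assay. A further 14 libraries with differently written titles, the second set, hold hES and ND3 samples with shControl, shKBTBD8 or a hairpin against TCOF1 (shTCOF1), and none from ND1.

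KBTBD8 is a substrate adaptor of the ubiquitin ligase built on CUL3. The adaptor binds chosen proteins and brings them to the ligase, which attaches ubiquitin to them. In human embryonic stem cells KBTBD8 is known for the monoubiquitylation of TCOF1 and NOLC1, nucleolar proteins that take part in making ribosomes, and for its role in neural crest formation. Ribosome footprints are the stretches of mRNA that ribosomes protect from RNase I. Footprint counts follow both the amount of an mRNA and how heavily ribosomes occupy it, and mRNA counts from the same condition separate these. Neural conversion turns pluripotent cells into neuroectoderm, with loss of pluripotency transcripts and gain of neural ones over several days.

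The files name transcripts only by UCSC identifiers. None of these matched the gene tables used here, so genes, pathways and cell type markers are not named. The level of KBTBD8 itself, which would check the hairpin, and the markers of the labelled stages were not analysed here. Isoform rows that hold the same reads were merged, which left 17680 transcripts, each represented by 1 row. Over these, the ND1 mRNA libraries held 18.74 to 25.45 M counts and the footprint libraries 2.769 to 8.057 M. Between 0.181% and 0.305% of transcripts had no count in an ND1 mRNA library, against 1.7% to 8.96% in a footprint library. Across 17659 transcripts, log2 CPM (counts scaled by library size) of the mRNA replicates correlated with Pearson's r of 0.994 in shControl and 0.989 in shKBTBD8. Between the hairpins r lay between 0.98 and 0.987. For footprints (16740 transcripts) the replicate values were 0.953 and 0.942, and those between hairpins 0.922 to 0.963, so footprint replicates differed about as much within a hairpin as between hairpins. The labels do not say that replicates came from separate cultures. The p-values therefore reflect only how far these libraries spread, and that spread may be technical.

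The first question was which mRNAs differed at ND1. In shKBTBD8 cells 96 transcripts rose and 119 fell at an adjusted p under 0.05 in edgeR's quasi-likelihood test with Benjamini-Hochberg adjustment. These 215 are 1.22% of the 17659 tested, with 0.544% rising and 0.674% falling. The unadjusted p was under 0.05 for 2154 transcripts, or 12.2%. The changes of the 96 rising transcripts ran from 0.60 to 2.27 (log2) with a median of 1.05, and 50 of them were at least 2-fold. The 119 falling transcripts ran from -5.03 to -0.54 with a median of -1.10, and 68 were at least 2-fold. At least 4-fold changes numbered 16 among the falls and 3 among the rises. For every rising transcript both shKBTBD8 libraries lay above both shControl libraries, and for every falling one both lay below, against 24.2% and 22.2% of all transcripts tested. These same libraries chose the transcripts, so the separation is not separate evidence for the calls. The count moved with the libraries and the fit. It was 338 with only the ND1 groups in the fit, 458 with DESeq2 and 678 without merging of rows. Without shControl replicate 1 or 2 it was 36 or 55, and without shKBTBD8 replicate 1 or 2 it was 55 or 64, where the lone library of a group is assumed to vary like the other groups. In such bulk samples fewer cells of a type and less RNA per cell cannot be told apart.

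**Figure D1:**
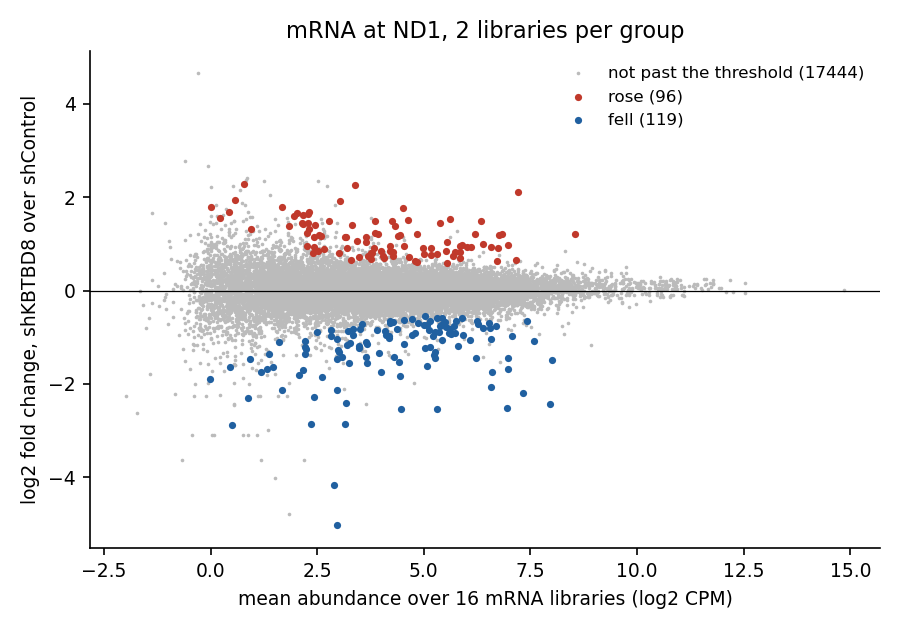
Change in mRNA at ND1 (shKBTBD8 over shControl, log2) against mean abundance over 16 mRNA libraries (log2 CPM), 1 point per transcript. The 96 rises (red) and 119 falls (blue) spread over most of the abundance range, and the falls reach further from 0 than the rises.

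The changed transcripts were of ordinary abundance. Their median level over all mRNA libraries was 3.97 (log2 CPM) for rises and 4.41 for falls, against 4.15 for all tested. No transcript had at most 3 counts in each library of one hairpin and at least 30 in each library of the other. The most negative fitted change among the called transcripts was -5.03. It belonged to a scarce transcript with 33 and 10 counts in the shControl libraries and 0 and 1 in the shKBTBD8 libraries. That transcript was nearly absent from the shKBTBD8 libraries but did not meet the limit of 30 in both shControl libraries. Its fitted value depends on the prior count of the fit. Among the called transcripts the most positive change, 2.27 ± 0.38 (SE), belonged to a transcript with 13 and 32 counts in shControl and 85 and 115 in shKBTBD8. The 215 calls formed 172 runs of rows lying within 20 rows of each other in the files. Of these runs 142 held 1 call, and the other 30 held 73 calls, with at most 4 in a run. All calls of a run went in one direction in 28 of these 30. Neighbouring rows can be isoforms whose reads were not merged, so 172 is the lower count of separate units.

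The transcripts with the smallest p-values, 2 rising and 2 falling, show the sizes involved. uc001enn.4 rose. Its mRNA stood at 10.5 and 10.9 CPM in the shControl libraries and at 46.3 and 45.9 CPM in the shKBTBD8 libraries, so replicates within a hairpin differed far less than the hairpins did. The log2 fold change was 2.11 ± 0.18 (SE, n = 2 per group), with an adjusted p of 0.00018 in edgeR. Its footprints were 6.62 and 9.9 CPM in shControl and 27.9 and 26.1 CPM in shKBTBD8, also without overlap, with a log2 fold change of 1.77 that did not pass the threshold (adjusted p = 0.187, edgeR). In control cells this mRNA climbed during conversion, from 9.01 and 10.1 CPM at hES to 54.5 and 52 CPM at ND3 and 394 and 298 CPM at ND6. In depleted cells it stood at 15.8 and 12.7 CPM at hES, 251 and 179 CPM at ND3 and 496 and 473 CPM at ND6. The level of the depleted cells at ND1 thus lay close below that of control cells at ND3. The excess was 2.01 (log2) at ND3 (adjusted p = 8.03e-06 in edgeR) and 0.48 at ND6, where it did not pass (adjusted p = 0.145). In the second set, which has 1 shKBTBD8 library per stage and whose values are given without a test, uc001enn.4 mRNA was 7.31 and 7.66 CPM in shControl and 26.7 CPM in shKBTBD8 at hES, and 10 and 122 CPM at ND3. The shTCOF1 libraries there held 16.7 CPM at hES and 35.2 CPM at ND3, between the shControl and shKBTBD8 values.

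uc003lot.2, whose row has a length of only 74 in the files (unit not stated), also rose. Its mRNA was 5.39 and 6.1 CPM in shControl and 20.5 and 23.2 CPM in shKBTBD8. The log2 fold change was 1.93 ± 0.18 (SE, n = 2 per group; adjusted p = 0.000295, edgeR). Footprints stood at 3.12 and 3.3 CPM in shControl and 22.3 and 32.8 CPM in shKBTBD8, without overlap, but the edgeR adjusted p was 0.879. This transcript was lost during conversion. Control mRNA went from 8.04 and 7.51 CPM at hES to 0.348 and 0.303 CPM at ND3, while depleted cells held 23.1 and 24.2 CPM at hES and 5.55 and 4.35 CPM at ND3. The excess was called by edgeR at hES (1.60 log2, adjusted p = 0.00116) and at ND3 (3.92, adjusted p = 4.07e-06). In the second set the shKBTBD8 library at hES held 3.05 CPM, between the 2 shControl libraries at 3.35 and 2.47 CPM, and the ND3 libraries held 0.329 CPM (shControl) and 0.483 CPM (shKBTBD8).

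uc003vft.4 fell. Its mRNA was 12.8 and 10.8 CPM in shControl and 1.99 and 1.3 CPM in shKBTBD8, a log2 fold change of -2.86 ± 0.29 (SE, n = 2 per group; adjusted p = 0.000393, edgeR). Footprints were 6.49 and 10.3 CPM in shControl, with 1.87 CPM and no count in the shKBTBD8 libraries, a change that did not pass (adjusted p = 1, edgeR). The shKBTBD8 replicate 2 footprint libraries at hES, ND3 and ND6 also had 0 counts of it. Those of replicate 1 had 2, 19 and 4, so the 0 at ND1 is not particular to that stage. Control cells raised this transcript from 0.53 and 0.25 CPM at hES to the ND1 level within the first day and held 18.4 and 13.8 CPM at ND3. Depleted cells started at 0.264 and 0.193 CPM and reached only 4.71 and 2.95 CPM at ND3. The deficit was also called at ND3 (-2.07 log2, adjusted p = 0.000223, edgeR) and ND6 (-1.74, adjusted p = 0.00465). In the second set the ND3 mRNA values lay close together, with 32.1 CPM in shControl and 30.3 CPM in shKBTBD8, while the ND3 footprints were 43.8 CPM and 21.5 CPM. At hES its shKBTBD8 mRNA library held 4.95 CPM against 0.44 and 1.09 CPM in shControl.

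uc003iym.3 changed direction between stages. At ND1 its mRNA was 16 and 13 CPM in shControl and 1.88 and 2.11 CPM in shKBTBD8, so it fell by 2.85 ± 0.30 on the log2 scale (SE, n = 2 per group; adjusted p = 0.000405, edgeR). Footprints were 30.9 and 19.1 CPM in shControl and 2.65 and 1.16 CPM in shKBTBD8, without overlap, but did not pass (adjusted p = 0.0914, edgeR). They did with DESeq2 (adjusted p = 0.00033) and with only the ND1 groups in the edgeR fit (adjusted p = 0.00235). At ND3 the order was the opposite. Control mRNA was 1.59 and 1.4 CPM, and depleted cells held 14.4 and 18.7 CPM, near the control level of hES (16.2 and 18.5 CPM). The rise at ND3 was 3.47 (log2, adjusted p = 1.03e-05) in mRNA and 3.96 (adjusted p = 0.00805) in footprints, both by edgeR. The depleted cells thus went from 10.3 and 12.4 CPM at hES to about 2 CPM at ND1 and back, while in control cells the drop lay between ND1 and ND3. In the second set the ND3 mRNA values lay close together, with 1.43 CPM in shControl and 1.8 CPM in shKBTBD8. Its ND3 footprints were 0 counts in shControl and 16 counts (3.66 CPM) in shKBTBD8. That shControl footprint library had no count for 13.2% of transcripts, so its 0 gives no clear direction. The row of uc003iym.3 stands for a group of 19 rows, the most of the 4.

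**Figure D2:**
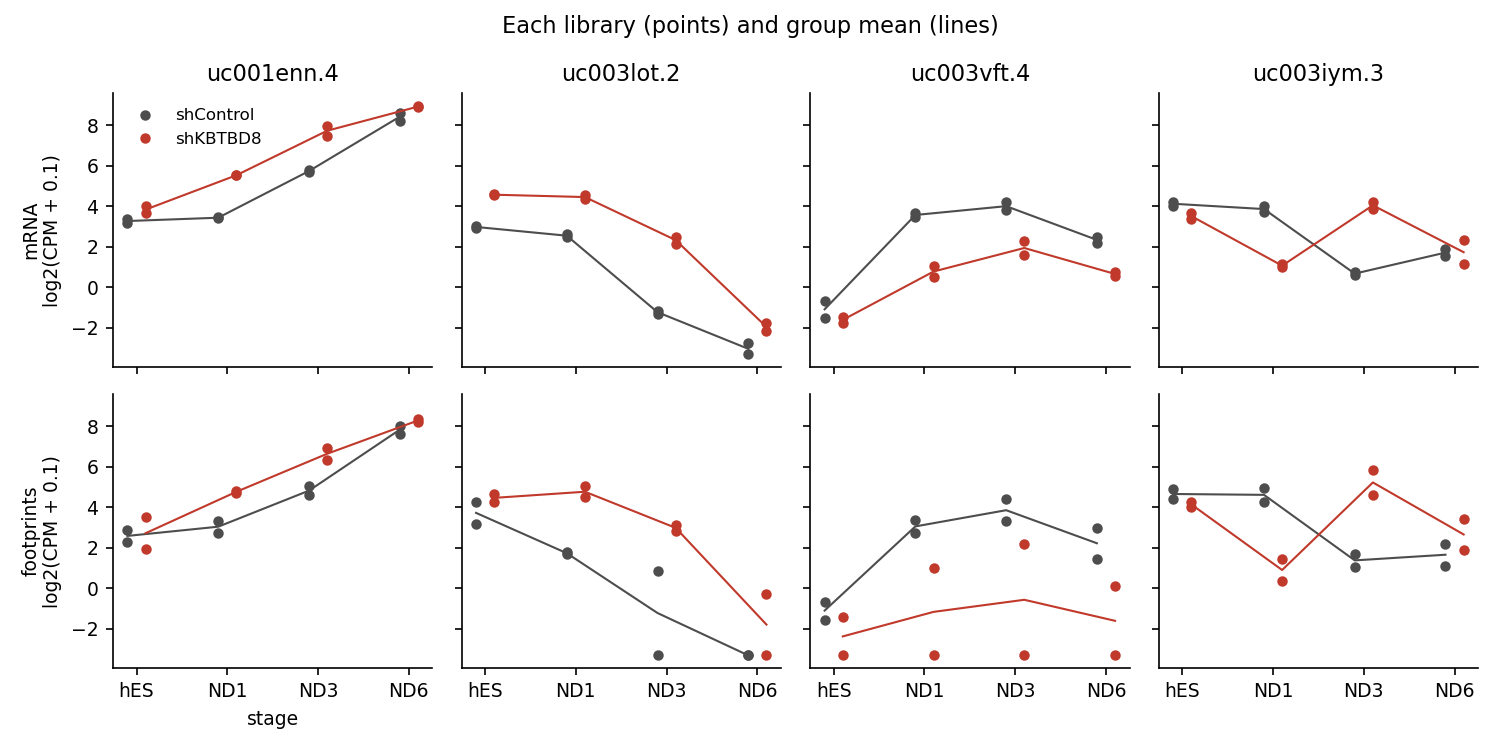
Levels of the 4 transcripts with the smallest ND1 mRNA p-values (2 rising, 2 falling) at each stage, as log2(CPM + 0.1), mRNA above and footprints below, with shControl in grey and shKBTBD8 in red. Points are libraries and lines join group means; at ND1 the groups do not overlap in any of the 8 panels, and for uc003iym.3 the order of the hairpins turns between ND1 and ND3.

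The second question was whether the ND1 changes were present at other stages, whose libraries were not in the contrast that chose these transcripts. They were in the same fit, and so shared its filter and its estimate of the spread. Among the 96 ND1 rises, 89 were also higher in shKBTBD8 mRNA at hES (92.7%, against 50.7% of all tested), with a median change of 0.44. At ND3 77 were higher (80.2%, against 50.3%), with a median of 0.85, and at ND6 55 were (57.3%, against 49.7%), with a median of 0.16. Among the 119 ND1 falls, 110 were lower at hES (92.4%, against 49.3% of all tested; median -0.61), 93 at ND3 (78.2%, against 49.7%; median -0.41) and 73 at ND6 (61.3%, against 50.2%; median -0.22). In the first set most of the ND1 directions were thus also seen in undifferentiated cells, before conversion began. The shares at the 3 stages were not tested against each other. At each other stage the medians of both lists were nearer to 0 than at ND1, where the lists were chosen.

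Few single changes passed the threshold at hES, where 32 transcripts did (0.181% of those tested). Of the 11 rises called there (0.0623%) 8 were ND1 rises (72.7% of the hES list and 8.33% of the ND1 list). Of the 21 falls (0.119%) 14 were ND1 falls (66.7% and 11.8%). At ND3, with 1488 calls (8.43%; 4.51% rising and 3.92% falling), 44 of the ND1 rises rose again, which is 45.8% of the ND1 list and 5.53% of the ND3 list. For falls the 45 shared were 37.8% and 6.5%. At ND6 (705 calls, 3.99%; 2.08% rising and 1.91% falling) 13 ND1 rises and 14 ND1 falls were called again in the same direction.

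Some transcripts were called in opposite directions at 2 stages. At ND3 4 of the ND1 rises fell (4.17%, against 3.92% of all tested). At the same stage 11 of the ND1 falls rose, uc003iym.3 among them (9.24%, against 4.51%). At ND6 7 of the rises fell (7.29%, against 1.91%) and 2 of the falls rose (1.68%, against 2.08%). The first and the last of these 4 shares are near those of all transcripts. The counts are not of independent units, since some of these transcripts may be isoforms that share reads. Among the ND1 rises that fell at ND3, some with neighbouring identifiers changed by 1.18, 1.03 and 0.91 at ND1. At ND3 they changed by -0.57, -0.59 and -0.79. Among those that fell at ND6, some with neighbouring identifiers changed by 0.75 and 0.90 at ND1 and by -0.89 and -0.87 at ND6. In footprints, of the 11 that fell at ND1 and rose at ND3, 10 had a negative change at ND1 and 10 a positive one at ND3. Of the 4 that rose at ND1 and fell at ND3, 2 were positive and 2 negative at ND1 and all 4 were negative at ND3. Between hES and ND6 control cells had a positive change, called or not, for 8 of the 11. By the same measure they had one for 73.9% of the ND1 falls and 50.5% of all tested. The control change was also positive for 1 of the 4, 4 of the 7 and 0 of the 2.

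In the mRNA of the second set, whose values are given here without a test, 1 shKBTBD8 library per stage did not show the ND1 directions for the lists as a whole. Of the 119 ND1 falls, 115 had a mean count of at least 50 there, and 85 of these (73.9%, against 50.5% of all transcripts at that level) were higher in shKBTBD8 than in shControl at hES, with a median difference of 0.27 (log2). Of 80 ND1 rises at that level, 37 (46.2%) were higher. At ND3 37 of the 80 rises and 58 of the 115 falls were higher (46.2% and 50.4%, against 48.3%). With shTCOF1 at ND3 79 of the 115 falls were lower (68.7%, against 52.8%) and 46 of the 80 rises were higher (57.5%, against 47.2%). The labels do not give the hairpin sequences or say how the sets relate, and the second set holds no ND1 library.

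**Figure D3:**
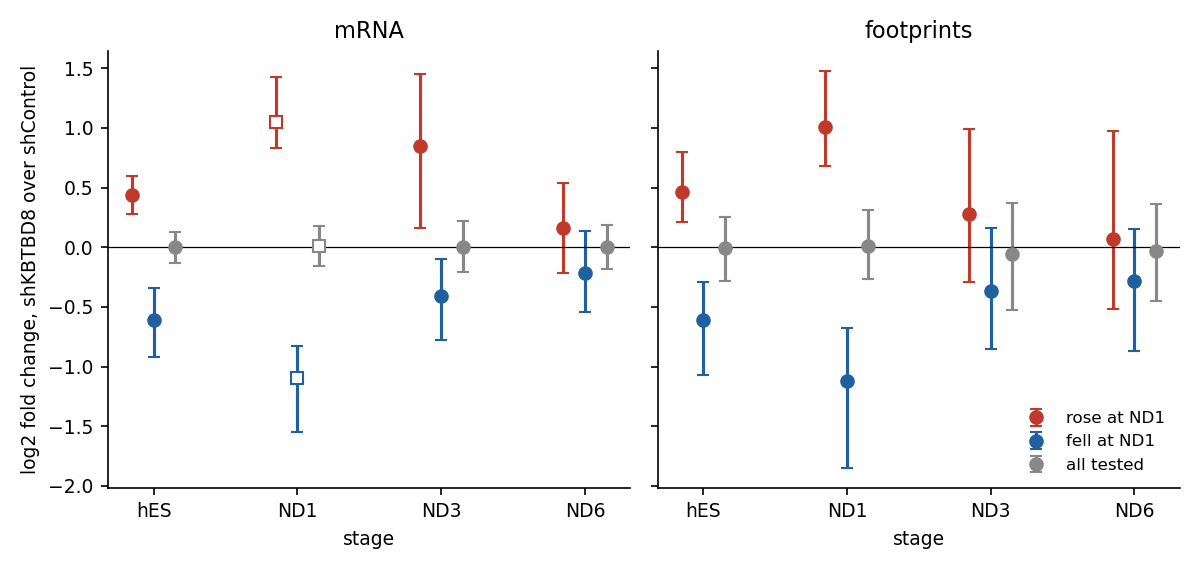
Median change (shKBTBD8 over shControl, log2) with quartiles at each stage for the 96 transcripts that rose at ND1, the 119 that fell and all tested, in mRNA (left) and footprints (right). Open squares are the ND1 mRNA values that chose the lists; elsewhere the medians of both lists keep their sign, and in mRNA they come nearest to 0 at ND6.

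The effect at ND1 was also tested against that at each other stage, transcript by transcript. Against hES, no transcript had a different effect at ND1 after adjustment in edgeR (0 of 17659). The unadjusted p was under 0.05 for 362 (2.05%), and DESeq2 called 7. Against ND3 the effect differed for 301 transcripts (1.7%), and against ND6 for 237 (1.34%). Without shControl replicate 1 or 2 these counts were 162 or 111 for ND3 and 122 or 67 for ND6. Without shKBTBD8 replicate 1 they were 132 and 78, and without shKBTBD8 replicate 2 they were 190 and 161. Of the 301, 110 (0.623% of those tested) had the more positive effect at ND1 and 191 (1.08%) the more negative. Most of these were changes called at ND3 and not at ND1, namely 86 of the 110 and 142 of the 191. In footprints the effect differed from that at hES for 0 transcripts (4 by DESeq2; 121, or 0.723%, had an unadjusted p under 0.05), from ND3 for 4 (0.0239%) and from ND6 for 2 (0.0119%). As a description, the ND1 effects correlated, over the 15964 transcripts whose mean count was 50 or more, with those at hES with r = 0.48, at ND3 with r = 0.34 and at ND6 with r = 0.22. These transcripts share libraries and are not independent.

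The third question was whether the mRNA changes were also seen in ribosome footprints. After adjustment edgeR called no rise and 2 falls among 16740 transcripts (0.0119%) in ND1 footprints. The unadjusted p was under 0.05 for 304 (1.82%), and DESeq2 called 26. Footprint values nonetheless lay on the side of the mRNA change for most of the called transcripts. Of the 95 mRNA rises measured in footprints, 90 had a positive change (94.7%, against 50.8% of all tested), with a median of 1.01. In 82 (86.3%, against 18.1%) both shKBTBD8 libraries lay above both shControl libraries. Of the 117 mRNA falls, 111 had a negative change (94.9%, against 49%), with a median of -1.12. In 94 (80.3%, against 18%) both shKBTBD8 libraries lay below. Both depleted footprint libraries showed these directions, each set against the same shControl mean. Replicate 1 lay above that mean for 93 of the 95 rises and replicate 2 for 88, against 8821 and 8053 of all 16720. For the falls, 112 and 105 of 117 lay below, against 7851 and 8540 of all 16720. Footprint and mRNA libraries are labelled with the same hairpins and stages, and the labels do not say whether they came from the same cultures.

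Both transcripts called in footprints were lower in depleted cells. No footprint call was left without shControl replicate 1, without shKBTBD8 replicate 1 or without shKBTBD8 replicate 2, and 3 were made without shControl replicate 2. The first, of length 1131, had 41.5 and 29.3 footprint CPM in shControl and 8.26 and 8.71 CPM in shKBTBD8. The log2 fold change was -2.08 ± 0.32 (SE, n = 2 per group; adjusted p = 0.0161, edgeR). Its mRNA fell as well, from 11.7 and 11.6 CPM to 2.66 and 1.72 CPM (-2.43, adjusted p = 0.000704). The second, of length 522, had 12.7 and 12.8 footprint CPM in shControl and 0.624 and 0.58 CPM in shKBTBD8, which is 98 and 35 counts against 4 and 2. The footprint log2 fold change was -4.32 ± 0.68 (adjusted p = 0.0161, edgeR). Its mRNA was 3.64 and 3.15 CPM in shControl and 0.731 and 0.957 CPM in shKBTBD8, a change of -1.97 that did not pass the threshold (adjusted p = 0.194, edgeR). Control cells raised both strongly by ND3. The first reached a mean of 561 ± 76.1 mRNA CPM (SD, n = 2) in shControl and 246 ± 29.1 CPM in shKBTBD8, and the second 71.1 ± 9.29 CPM and 1.75 ± 0.727 CPM. Both ND3 mRNA differences passed (adjusted p = 0.00365 and 2.5e-05, edgeR). The second set did not hold the deficit of the second transcript, with ND3 mRNA at 215 CPM in shControl and 209 CPM in shKBTBD8 and footprints at 467 and 495 CPM. The first stood there at 787 and 585 CPM in ND3 mRNA. At hES both were higher in the shKBTBD8 mRNA library of that set, the first at 68 CPM against 4.23 and 3.27 CPM and the second at 9.23 CPM against 1.59 and 0.963 CPM.

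The footprint change was close to the mRNA change. Over the 212 called transcripts measured in both assays, the median of the footprint change less the mRNA change was -0.07 (log2) and its median size 0.32. Translational efficiency, the ratio of footprints to mRNA, differed for 0 of 17680 transcripts after adjustment, by edgeR and by DESeq2, and 247 (1.4%) had an unadjusted p under 0.05. Of the 215 called in mRNA, 5 were among those 247. Median changes in translational efficiency were -0.09 for the mRNA rises and -0.04 for the falls. With 2 footprint libraries per group of 2.769 to 8.057 M counts, changes in translational efficiency, large ones included, may not have been detectable. The second transcript called in footprints had an estimate of -2.40 ± 1.12 (log2, SE) and was not called here. For uc001enn.4 the estimate was -0.32 ± 0.44 (log2, SE) for uc003iym.3 -0.77 ± 0.74, for uc003vft.4 -0.04 ± 1.09 and for uc003lot.2, the only positive one of the 4, 1.17 ± 0.75. Over the 10329 transcripts tested in both assays whose mean footprint count was 50 or more, mRNA and footprint effects correlated with r = 0.59, as a description.

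**Figure D4:**
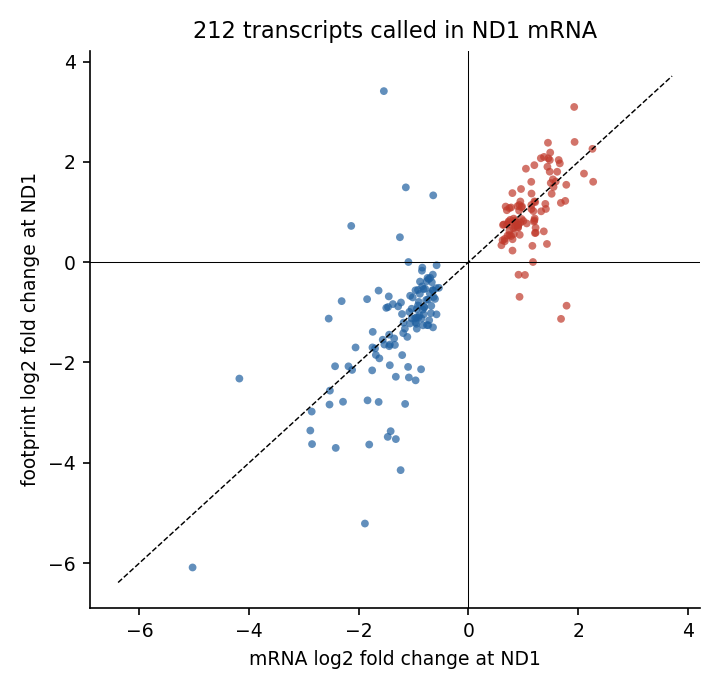
Footprint change against mRNA change at ND1 (shKBTBD8 over shControl, log2) for the 212 transcripts called in mRNA and measured in footprints, with rises in red and falls in blue. The dashed line marks equal change; 90 of 95 rises lie above 0 in footprints and 111 of 117 falls below.

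The fourth question was how the ND1 changes related to conversion itself, taken from libraries that hold no ND1 sample. In shControl mRNA 29.7% of transcripts rose and 29.4% fell from hES to ND6 by edgeR. Among the 96 ND1 rises, 57 (59.4%) were transcripts that control cells lower by ND6 and 22 (22.9%) ones that they raise. Among the 119 ND1 falls the shares were the opposite, with 71 (59.7%) that control cells raise and 18 (15.1%) that they lower. The 71 changed by a median of 2.53 (log2) in control cells between hES and ND6 and by -1.28 with shKBTBD8 at ND1. For the 57 the medians were -1.97 and 0.97. Not all ND1 changes had this sense, and uc001enn.4 was a transcript that control cells raise and that rose further in depleted cells.

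Classes drawn from the second set, which shares no library with the ND1 samples, showed the same directions. Conversion-induced transcripts (there raised by 1 or more on the log2 scale from hES to ND3, with an adjusted p under 0.05) had a median ND1 change of -0.13 over 1785 transcripts, of which 49 fell (2.75%) and 15 rose (0.84%). Conversion-repressed transcripts had a median of 0.16 over 1533, of which 42 rose (2.74%) and 7 fell (0.457%). The median of all tested was 0.01. In ND1 footprints the induced class had a median of -0.03, with 47% of its transcripts positive against 50.8% of all tested, and the repressed class a median of 0.14, with 61.4% positive. A conversion score, the mean log2 CPM of the induced class less that of the repressed class, was -0.71 in both shControl mRNA libraries at ND1 and -0.97 and -1.07 in the shKBTBD8 libraries. At hES the mRNA scores were -2.26 and -2.08 in shControl and -2.41 and -2.29 in shKBTBD8, so the depleted mRNA libraries lay below the controls before conversion as well. The hES footprint scores overlapped, with -2.10 and -2.02 in shControl and -2.08 and -2.27 in shKBTBD8. In ND1 footprints the score was -0.88 and -0.91 in shControl and -1.14 and -1.07 in shKBTBD8. At ND1 both depleted libraries thus lay below both controls in both assays. The exact permutation test of 2 against 2 cannot give a p below 0.33. At ND3 the mRNA scores were 1.49 and 1.48 in shControl and 0.89 and 0.85 in shKBTBD8, also without overlap.

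Transcript length moved with the ND1 mRNA changes. From the shortest rows (length up to 100) to the longest (above 1600, unit not stated) the median change went from 0.06 to -0.15. The share called as fallen rose from 0.0903% to 1.55%, and that called as risen fell from 0.812% to 0.141%. The median length was 327 for rises, 580 for falls and 390 for all tested. The length trend was uneven between libraries. Over the shControl mean, shKBTBD8 replicate 1 went from 0.02 to -0.07 and replicate 2 from 0.11 to -0.21. The difference of replicate 1 and replicate 2 within a hairpin had a trend of similar size, from -0.08 to 0.11 in shControl and -0.09 to 0.12 in shKBTBD8. Footprints showed no fall with length, with medians of -0.02 in the shortest class and 0.06 in the longest. With a correction of each library for length, chosen after seeing the data, 221 mRNA transcripts were called, 104 rising and 117 falling. The part of length in single calls was not tested.

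**Figure D5:**
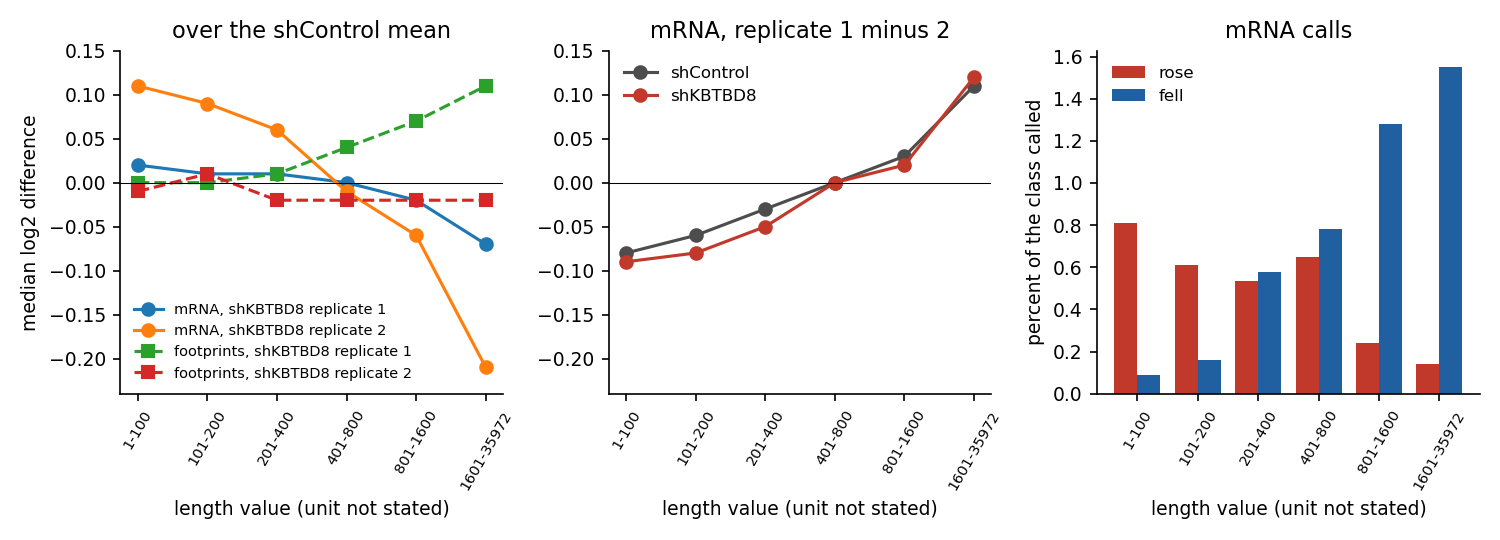
Median log2 difference from the shControl mean at ND1 by length class for each shKBTBD8 library (left), the difference of mRNA replicates 1 and 2 within each hairpin (middle), and the percent of each class called in mRNA (right). The mRNA medians fall with length by more in replicate 2 than in replicate 1, the replicate differences have a trend of similar size, and the percent called as fallen climbs from 0.0903 to 1.55.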

How the data were processed

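The deposited files hold whole-number counts per transcript row, 63691 rows per library, with UCSC identifiers and a length whose unit is not stated. Per the submitters' processing notes, the authors used CASAVA 1.8, Bowtie2 2.0.6, TopHat2 2.0.7 and the hg19 build. How reads were counted, with or without strand, and what was done with multiply mapped reads is not given in the sources used here, so antisense transcripts and near-identical copies could share reads and are uncertain. The deposited length column (another number, neither a count nor a level) was used only for length classes.

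Rows averaging 10 or more counts over the 46 libraries were linked when they lay within 20 rows of each other and their chi-square over the libraries, divided by its degrees of freedom, was below 2. Each group was represented by its row of highest total, which gave 17680 transcripts from 45378 rows, 7396 of them of 1 row. Of 19374 random pairs of rows 4 were linked, against 56.2% of neighbouring pairs. This grouping, the members compared and the gene lists were chosen with earlier results of these data known.

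Counts were tested with edgeR 4.0.16 in R 4.3.3 by its quasi-likelihood F-test, after TMM scaling and filterByExpr, with Benjamini-Hochberg adjustment over all transcripts tested and a threshold of 0.05. For each assay 1 model held the 16 first-set libraries in 8 groups of 2. Translational efficiency was the interaction of assay and hairpin at ND1 over 32 libraries, and differences between stages were differences of contrasts. Standard errors follow from the fold change and its F value. Log2 CPM used a prior count of 2. Conversion classes came from the 7 mRNA libraries of the second set, fitted with stage and hairpin as additive terms. DESeq2 1.42.0, other filters and scalings, a replicate block and the omission of each ND1 library were tried as alternatives.

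The gene lists, the markers and the named genes of the rule could not be used, because 0 identifiers matched a gene table. Without names the rule takes the 2 rising and the 2 falling transcripts with the smallest p in ND1 mRNA. Those described without identifier (the footprint calls, the extremes and those with neighbouring identifiers) were chosen after their values were seen. No sequences are shown, for the same reason.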

Additional observations from a re-analysis of the deposited data

Results flagged for a closer look

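The effect of shKBTBD8 at ND1 was set against that at the other stages by edgeR's test of the difference, and each result here passed that test. In mRNA the effect differed between ND1 and ND3 for 301 transcripts and between ND1 and ND6 for 237. In footprints it differed for 4 transcripts against ND3 and for 2 against ND6.

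Among the 4 transcripts named, uc003iym.3 differed most. Its mRNA effect at ND1 less that at ND3 was -6.32 (log2, adjusted p = 6.95e-06 in edgeR), with a fall at ND1 and a rise at ND3. The same difference in footprints was -7.59 (adjusted p = 0.00104). Against ND6 its mRNA difference was -2.92 (adjusted p = 0.00431). For uc003lot.2, which rose at both stages, the mRNA effect at ND1 less that at ND3 was -1.99 (adjusted p = 0.00941), so the excess was larger at ND3. For uc001enn.4 the mRNA effect at ND1 less that at ND6 was 1.62 (adjusted p = 0.00499).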

How the results depend on the processing

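The number of transcripts called in ND1 mRNA (215) was 458 with DESeq2, 338 with only the ND1 groups in the fit and 678 with ungrouped rows, and 36 to 64 without 1 of the ND1 libraries. DESeq2 size factors, no filter, a mean count of at least 100, both title sets, the looser linking limit and the length correction (the last 2 chosen after seeing the data) left it within 1.5 times. The difference from the ND3 effect (301) was called for 533 with DESeq2, 995 with ungrouped rows and 111 to 190 without 1 ND1 library. That from ND6 (237) was called for 390, 701 and 67 to 161, and that from hES (0) for 7 with DESeq2. Footprint calls at ND1 (2) were 26 with DESeq2, 46 with only the ND1 groups, 4 with ungrouped rows, 1 with both title sets, 13 with the length correction and 0 to 3 without 1 library. Footprint differences from hES (0) were 4 with DESeq2, 1 without filter and 1 with the length correction. Those from ND3 (4) were 30 with DESeq2, 28 ungrouped, 9 with the length correction and 2 to 3 without 1 library, and those from ND6 (2) were 14, 6 with ungrouped rows, and 1 with both title sets or without 1 library. The causes were not tested.

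Replicate numbers were not taken to pair samples: over 28 pairs of groups the deviations of same-numbered libraries correlated at -0.07 to 0.81 in mRNA (20 over 0.1) and -0.16 to 0.43 in footprints (13 over 0.1). At ND1 the differences of replicate 1 and 2 in shControl and shKBTBD8 correlated at 0.54 in mRNA and 0.06 in footprints. With a replicate block 574 mRNA transcripts were called at ND1, 624 differed from ND3 and 446 from ND6. In footprints the block gave 10 at ND1, among them uc003iym.3 (adjusted p = 0.0476, edgeR), and 1 against hES. Its adjusted p was 0.0369 with the length correction and lay between 0.00033 and 1 over all alternatives.

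Translational efficiency had 0 calls under each alternative run. The estimate of uc003vft.4 (-0.04) became 0.08 with only the ND1 groups and lay between -7.01 and 0.71 without 1 ND1 library, with a change of sign in 4 of 8 such omissions. Its footprints had 0 counts in shKBTBD8 replicate 2 at ND1, and also at hES, ND3 and ND6. The share of called transcripts with the ND1 sign was 89.9% to 95.4% at hES, 70.3% to 87.3% at ND3 and 57.8% to 70.9% at ND6 over the alternatives, and 92.3% to 100% in footprints. The 4 named transcripts stayed called in mRNA under each alternative. Alternatives for gene lists were not run, since the lists could not be applied.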
